A study of Mus musculus with 21 samples.

Results

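Cuedc1, Sbk1, Fam171a1, Lrp3, Fam212b and Pcp4 are 6 genes, of 23587 in the table that holds the comparison, chosen by measured values: their TPM was tightly higher in olfactory sensory neurons (OSN) with a Mex3a fusion construct than in OSN with the construct's editing part alone. They are described here in every group of both deposited tables, with the question whether their level follows the immature state of the neurons or the construct. The study made 21 RNA libraries from sorted cells of the olfactory epithelium, all from transgenic mice. Every mouse carried a tetO construct with mCherry, either tetO-Mex3a_HyperTRIBE_mCherry (MexHT) or tetO-HyperTRIBE_mCherry (HT), and a driver of it, gg8tTA alone or gg8tTA with OMPtTA. With both drivers there were 6 libraries of MexHT mCherry-positive cells (immature and mature OSN, per the labels), 5 of MexHT mCherry-negative cells, 3 of HT mCherry-positive cells and 3 of HT mCherry-negative cells. With gg8tTA alone there were 2 libraries of MexHT mCherry-positive cells (immature OSN, per the labels) and 2 of mCherry-negative cells, and no HT group with this driver was analysed here. The mCherry-negative cells came from the same mice and so carried the same transgenes, and the labels give no age, sex or strain.

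Olfactory sensory neurons are made throughout life from basal progenitors. They pass through an immature stage, in which they extend an axon and express Gap43 and the G protein subunit Gng8, and then become mature neurons with cilia, odour transduction proteins and Omp. The gg8 driver acts in the immature stage and the OMP driver in mature neurons. HyperTRIBE joins the catalytic part of an RNA editing enzyme of the ADAR family to an RNA-binding protein, so that bound RNAs are edited, and Mex3a is an RNA-binding protein known from stem and progenitor cells. The 6 genes share no family. Pcp4 is a small protein that binds calmodulin, Fam212b (now Inka2) inhibits the p21-activated kinase Pak4, Sbk1 is a serine/threonine kinase of the brain, Cuedc1 has a ubiquitin-binding CUE domain, and Lrp3 and Fam171a1 are membrane proteins, the former of the LDL receptor family.

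In the GENCODE annotation of GRCm38 (the mm10 build named in the submitters' processing notes) all 6 are protein-coding genes on 5 chromosomes. Fam171a1 lies at chr2:3114224-3227806 on the plus strand, Fam212b at chr3:105704599-105720842 (plus), Lrp3 at chr7:35200027-35215498 (minus), Sbk1 at chr7:126272619-126295016 (plus), Cuedc1 at chr11:88098058-88194140 (plus) and Pcp4 at chr16:96467606-96525793 (plus). Exons of 2 of them lie at least in part within the span of another gene. For Pcp4 this is Igsf5 on the same strand, which stayed between 0 and 4.92 TPM over the 21 libraries. For Lrp3 it is Slc7a10 on the other strand, which meets its 3′ end and stayed at or under 2.21 TPM. Whether exons of both genes overlap there was not examined. How reads in the shared parts were assigned is not given in the sources used here.

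Upstream windows (the 250 bases before a transcript start, RefSeq, build GRCm38.p6) were found for 5 of the 6 genes, 9 windows in all, and none for Sbk1. The windows of Pcp4 and Fam212b are shown because these 2 genes had the largest differences between MexHT and HT OSN. Over the 6 MexHT OSN libraries their correlations with Mex3a also had opposite signs. For Fam171a1, whose correlation had the sign of Pcp4's, the window with most E-boxes of 3 is shown. Those libraries entered the choice of the genes, and of these correlations only that of Fam212b passed adjustment (below). None of the 3 windows overlaps an exon of its own gene. Capitals mark CANNTG, the E-box, a motif of neurogenic basic helix-loop-helix factors, which reads the same on both strands.
Pcp4, chr16:96467356-96467605, plus strand: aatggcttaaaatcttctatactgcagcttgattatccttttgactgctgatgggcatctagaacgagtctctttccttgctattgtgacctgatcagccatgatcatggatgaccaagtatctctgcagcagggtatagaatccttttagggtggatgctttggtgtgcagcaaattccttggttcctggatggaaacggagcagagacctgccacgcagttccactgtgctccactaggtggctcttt
Fam212b, chr3:105704349-105704598, plus strand: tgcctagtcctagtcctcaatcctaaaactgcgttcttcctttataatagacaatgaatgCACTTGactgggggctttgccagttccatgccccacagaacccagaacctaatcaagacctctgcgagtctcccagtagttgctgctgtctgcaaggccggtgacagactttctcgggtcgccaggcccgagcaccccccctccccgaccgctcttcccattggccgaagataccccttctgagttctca
Fam171a1, chr2:3118132-3118381, plus strand: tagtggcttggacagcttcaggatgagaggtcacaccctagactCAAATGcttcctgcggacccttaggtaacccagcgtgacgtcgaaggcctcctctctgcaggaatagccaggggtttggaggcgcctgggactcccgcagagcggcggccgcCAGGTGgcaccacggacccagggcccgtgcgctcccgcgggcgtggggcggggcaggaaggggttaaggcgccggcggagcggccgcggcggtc

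The printed Pcp4 window holds 0 matches to CANNTG, that of Fam212b 1 and that of Fam171a1 2, while the other Fam171a1 windows hold 0. Over the 9 windows, 6 hold a match, and 66.2% of 32536 distinct RefSeq windows of the same length do. TAATTA, the core of many homeodomain sites, was in 0 of the 9 windows (4.84% of all windows), with both strands searched. The windows differ in base composition too. The Pcp4 window is 46.8% G and C with 3 CpG dinucleotides, the printed one of Fam212b 54.8% with 9 and that of Fam171a1 68.8% with 23. The Fam171a1 window at the start of the annotated gene, chr2:3113974-3114223, is 40% with 1 CpG, where the median of all windows was 52.4% and 6 CpG. A match or its lack says nothing on binding.

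The deposited values are TPM, a level corrected for transcript length and library total, so levels of different genes can be set side by side. Counts recovered from the TPM gave 7425287 to 15180717 counts per library. Transcripts of Xist and of the Y chromosome were both present in 14 of the 21 libraries, 1 held Xist only and 6 the Y-linked ones only. The markers went with the labels in part. The summed level of 12 mature OSN genes was 9339 to 14285 TPM in HT OSN, 2244 to 6700 in MexHT OSN and 317 to 852 in gg8-driven OSN, but also 5537 to 11320 in HT, 590 to 7331 in MexHT and 7927 to 14006 in gg8 mCherry-negative cells. The 10 immune genes summed to 1401 to 5857 TPM in HT OSN, against 896 to 2306 in HT negative cells, and 7 connective tissue and vessel genes summed to 42.3 to 324 TPM in mCherry-positive and 5083 to 23446 TPM in mCherry-negative libraries. Mex3a was 328 to 1271 TPM in MexHT OSN and 24.0 to 61.5 in HT OSN. Adar, an editing enzyme gene of the family that gives HyperTRIBE its catalytic part, was 377 to 1198 TPM in MexHT OSN, 1033 to 1155 in HT OSN and 42.0 to 90.5 in all mCherry-negative libraries. Gene-level values do not part the mouse's own Mex3a or Adar RNA from that of a construct.

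Cuedc1 was at 48.8 TPM in the lowest, 54.1 at the median and 74.8 in the highest of the 6 MexHT OSN libraries, and at 8.73, 9.72 and 8.86 TPM in the 3 HT OSN libraries. The mCherry-negative cells lay between these, at 38.9, 26.2, 23.5, 29.6 and 26.5 TPM in MexHT mice and 24.3, 18.9 and 22.9 TPM in HT mice. MexHT OSN and HT OSN were each clear of all other groups, and only the negative groups overlapped. Cuedc1 was therefore lowest in HT OSN, below every mCherry-negative library of that table, libraries that held mature OSN transcripts too (above).

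Sbk1 was the most abundant of the 6, with 324, 381 and 415 TPM as the lowest, median and highest MexHT OSN value, against 137, 133 and 138 TPM in HT OSN. The MexHT mCherry-negative libraries had 94.6, 157, 171, 118 and 205 TPM and the HT ones 91.2, 126 and 114 TPM. MexHT OSN stood above all other libraries of the table, HT OSN above HT negative cells by a small gap, and the MexHT negative libraries overlapped both HT groups.

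Fam171a1 ranged from 108 over a median of 121 to 144 TPM in MexHT OSN, and was 42.9, 46.0 and 40.9 TPM in HT OSN. Negative cells had 35.5, 32.3, 33.2, 29.6 and 31.2 TPM in MexHT mice and 31.5, 39.0 and 35.4 TPM in HT mice. The order was MexHT OSN, HT OSN and then the negative groups, which overlapped each other.

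Lrp3 was low outside MexHT neurons. It reached 18.6, 22.1 and 25.3 TPM as lowest, median and highest of MexHT OSN, and 2.82, 3.92 and 3.58 TPM in HT OSN. Negative cells of MexHT mice had 6.75, 5.59, 6.41, 5.01 and 5.56 TPM and those of HT mice 4.27, 5.59 and 7.33 TPM. The negative groups overlapped, and HT OSN lay below every negative library, as for Cuedc1.

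Fam212b was at 31.9 TPM in the lowest, 42.6 at the median and 65.3 in the highest MexHT OSN library, and at 2.53, 3.09 and 3.97 TPM in HT OSN. Its negative cells had 4.86, 5.93, 8.03, 6.09 and 8.02 TPM with MexHT and 2.73, 3.79 and 5.62 TPM with HT. The lowest MexHT OSN library was 3.97 times the highest other library of the table, the widest such gap among the 6 genes. HT OSN and HT negative cells overlapped, and MexHT negative cells overlapped HT negative cells but not HT OSN.

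Pcp4 had 21.9, 43.6 and 55.6 TPM as lowest, median and highest MexHT OSN value and 2.63, 0.444 and 1.67 TPM in HT OSN, which are 6, 1 and 3 counts. Negative cells had 13.4, 5.10, 3.99, 5.35 and 6.30 TPM in MexHT mice and 1.57, 2.18 and 1.26 TPM in HT mice. All 5 MexHT negative libraries were above all 3 HT negative libraries, a separation seen for no other member and for 3.64% of all genes. They were also above the HT OSN libraries, which entered the choice of the genes. Because the HT values rest on few counts, the fold is best read from summed counts, scaled by each library's TPM per count (taken from Sbk1). The summed counts were 466 in MexHT OSN against 10 in HT OSN. The scaled ratio was 25.0 with an exact 95% interval of 13.5 to 52.5 that covers counting error only. Pcp4 was chosen by these same libraries, which the interval does not allow for, so the ratio is a description.

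**Figure D1:**
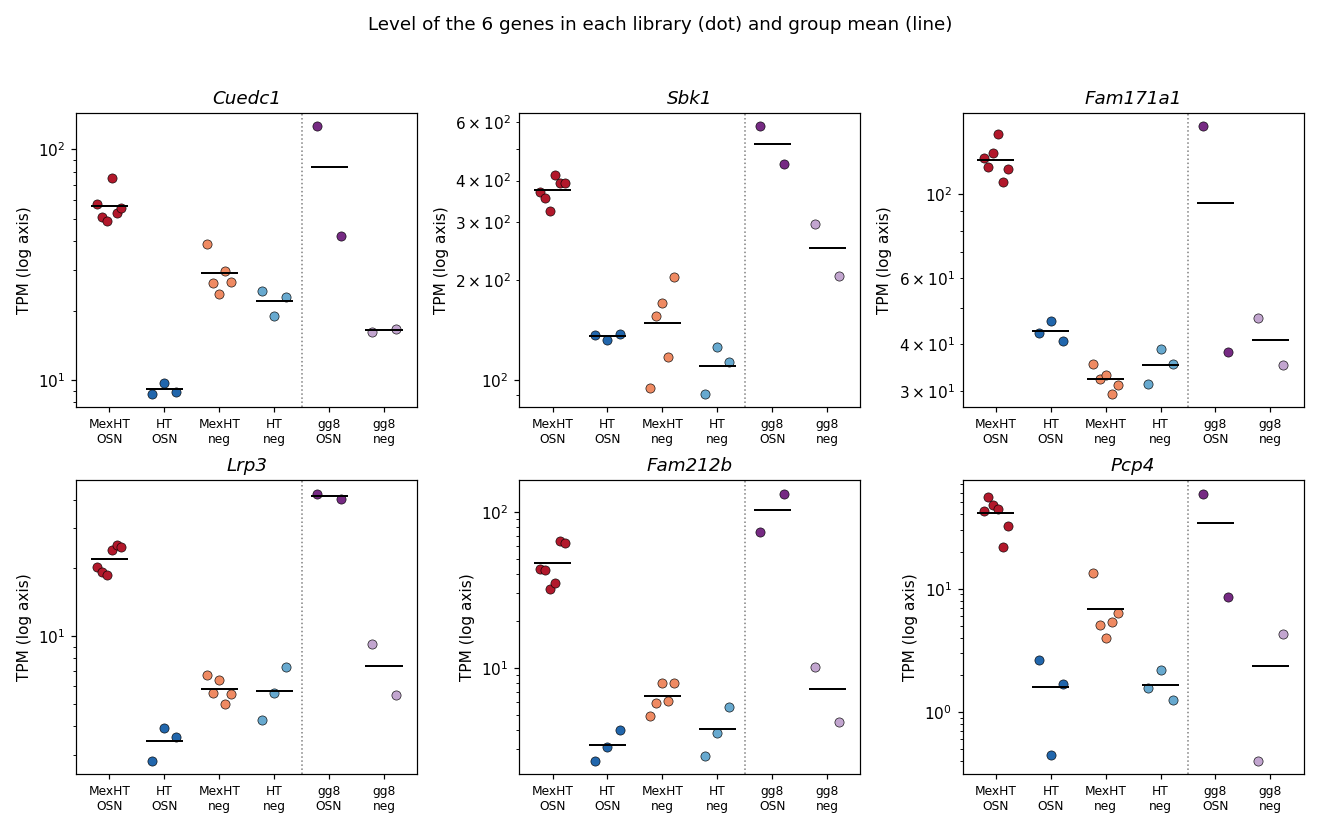
TPM of the 6 genes on a log axis, 1 dot per library and a line at the group mean, for the 4 groups with both drivers (left of the dotted line) and the 2 groups with gg8tTA alone, whose table was scaled separately. MexHT OSN libraries lie above all other libraries left of the line for each gene, and gg8 OSN replicate 2 lies far below replicate 1 for Cuedc1, Fam171a1 and Pcp4.

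MexHT OSN against HT OSN was the comparison that chose these genes, so its values are given as a description. On log2(TPM + 1) the difference was 4.05 (SE 0.33) for Pcp4, 3.47 (SE 0.25) for Fam212b, 2.50 (SE 0.14) for Cuedc1, 2.37 (SE 0.17) for Lrp3, 1.48 (SE 0.11) for Fam171a1 and 1.45 (SE 0.10) for Sbk1, with 6 and 3 libraries. The median of the 6 was 2.44 and that of 16067 genes 0.03. The groups did not overlap, with MexHT OSN above, for 6 of 6 members and for 21.5% of all genes, and 19.9% of all genes were called higher and 16.8% lower at an adjusted p under 0.05 by limma. Ordered by difference over SE, the members ranked 1, 2, 4, 5, 6 and 18. Armcx4 (rank 3, difference 2.86), Kcnc1 (rank 7, 2.40) and Pja1 (rank 8, 1.18) sat between or next to them, as did Gng8 (rank 11, 1.53), and Enho, Bex1, Stag3 and Stard7 ranked 16, 17, 19 and 20, around Pcp4. The members are thus a few of many genes with such values, not a class with a gap below it.

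Markers of neuron stage and of other cells differed in the same comparison. Of 12 immature OSN genes 9 were called higher in MexHT OSN (median 0.94), among them Gng8 (121 ± 18 TPM, SD, n = 3, to 350 ± 33.9, n = 6, limma adjusted p = 7.3e-05) and the growth-cone protein Gap43 (309 ± 52.3 to 631 ± 108 TPM, adjusted p = 0.00143). Of 12 mature OSN genes 11 were called lower (median -1.53), and of 12 progenitor genes 6 higher. All 10 immune genes were called lower, their sum being 319 to 616 TPM in MexHT OSN. These shares stand against the 19.9% higher and 16.8% lower of all genes. In bulk samples fewer cells of a type and less RNA per cell cannot be told apart, and the part of any of these shifts in the members' difference was not tested. With the Xist level as a covariate 329 genes were called in place of 5907, and all 6 members kept a positive difference (2.41 for Cuedc1, 1.49 for Sbk1, 1.39 for Fam171a1, 2.15 for Lrp3, 3.44 for Fam212b and 5.01 for Pcp4).

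In mCherry-negative cells, which the choice of genes did not use, MexHT mice could be tested against HT mice. None of the 6 members passed the test (limma), where 0 of 16860 genes (0%) did, and 3465 genes had an unadjusted p under 0.05. The median difference was 0.38 for the members and -0.01 for all genes. The largest was that of Pcp4, 1.46 (SE 0.34, limma adjusted p = 0.218), with 5 of 5 MexHT libraries above all HT libraries. Such a separation was found for 3.64% of all genes and for 1 of the 6 members. No marker was called in this comparison either (0% of all genes were called lower). All 12 mature OSN genes had negative differences (median -1.66), and 11 of 12 progenitor genes (0.70) and 5 of 5 basal genes (1.01) positive ones, and their part in the Pcp4 value was not tested. In summed counts, Pcp4 was 74 against 11, a scaled ratio of 4.13 with an exact 95% interval of 2.18 to 8.64. That interval covers counting error only, not the spread between libraries, and 30 of the 74 counts came from MexHT replicate 1. Fam212b differed by 0.61 (adjusted p = 0.231), Sbk1 by 0.39 (0.365), Cuedc1 by 0.36 (0.277), Lrp3 by 0.05 (0.903) and Fam171a1 by -0.12 (0.577), none past limma's threshold. Mex3a itself differed by 1.13 (adjusted p = 0.219), at 57.8 to 207 TPM in MexHT and 29.3 to 74.3 TPM in HT negative cells, and Adar by 0.28 (0.344).

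**Figure D2:**
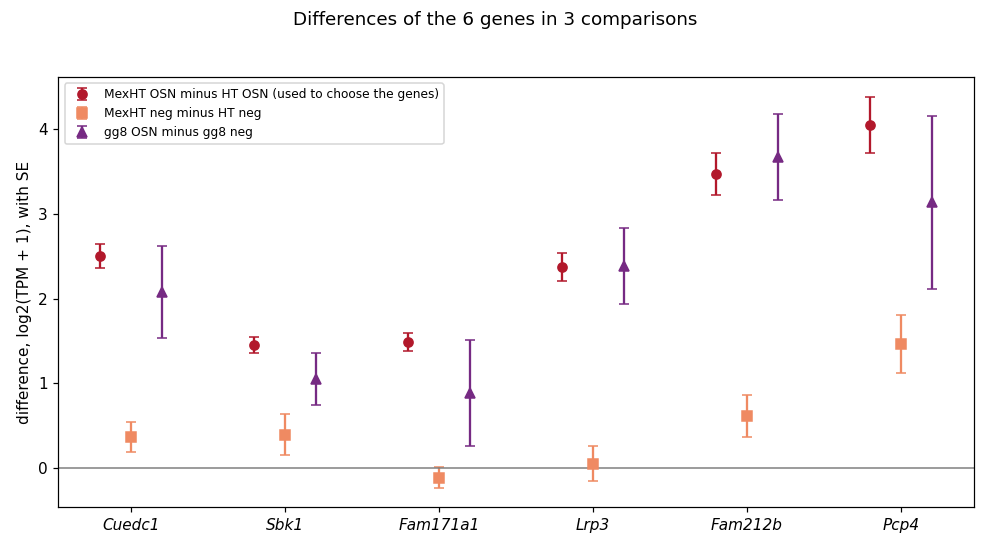
Differences on the log2(TPM + 1) scale with their standard errors from limma for the 6 genes in 3 comparisons (6 against 3, 5 against 3 and 2 against 2 libraries). The first comparison chose the genes, the mCherry-negative cells lie between -0.12 and 1.46, and the gg8-driven OSN lie between 0.89 and 3.67 with wider errors.

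The gg8 mice gave a second view, since all 4 of their libraries come from MexHT mice and both fractions hold transcripts of immature neurons. The 12 immature OSN genes summed to 6245 and 5051 TPM in the mCherry-negative cells and to 7608 and 6695 TPM in the mCherry-positive cells. Their median difference was 0.08, beside 0.09 for all genes, and 7 of the 12 had positive differences. Of the 12, 1 was called higher, Gng8 (215 ± 42.4 to 960 ± 419 TPM, SD, n = 2, limma adjusted p = 0.0300). Gap43 (-1.13) and Dcx (-1.98) were lower, not past the threshold. Mature OSN genes fell, 9 of 12 being called lower (median -4.28), as were 7.2% of all genes. The members differed by a median of 2.23, higher in mCherry-positive cells, against 0.09 for all 16490 genes. Of the 6, 2 were called higher (limma), where 1.12% of all genes were called higher. For 5 of the 6 both positive libraries were above both negative ones, as for 33.5% of all genes.

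Fam212b was at 10.1 and 4.47 TPM in the gg8 negative libraries and at 74.2 and 130.9 TPM in the positive ones, a difference of 3.67 (SE 0.51, limma adjusted p = 0.0205) that ranked 9 of 16490. Lrp3 was at 9.24 and 5.49 against 42.7 and 40.5 TPM, a difference of 2.39 (SE 0.45, adjusted p = 0.0330). Both calls needed all 4 libraries or all but positive replicate 1, since leaving out either negative library or positive replicate 2 left 0 genes called in the whole table. Sbk1 was at 297 and 206 against 583 and 448 TPM (1.05, adjusted p = 0.0835), higher in both mice but not past the threshold.

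The other 3 members depended on which gg8 mouse was read. Cuedc1 was at 16.2 and 16.7 TPM in negative and 125.4 and 42.1 TPM in positive cells (2.08, limma adjusted p = 0.0641, and 0.0414 with the mouse as a block). Pcp4 was at 0.402 and 4.33 TPM against 59.0 and 8.64 TPM, from 1, 10, 134 and 27 counts (3.14, SE 1.02, adjusted p = 0.102). Fam171a1 was at 47.0 and 35.3 TPM against 150.8 and 38.1 TPM (0.89, adjusted p = 0.360), so its second positive library lay within the range of negative cells, and the difference was -0.09 without positive replicate 1. That second library also held 93.8 TPM of Gap43 against 672 in the first. The sums of the 12 immature OSN genes were closer, at 6695 TPM in the second against 7608 TPM in the first. The second library had a progenitor sum of 2439 against 1158 TPM and a mature OSN sum of 317 against 852 TPM. It held 1632 TPM of Mex3a against 460 and 1418 TPM of Adar against 498. Fam212b was higher in it, and Pcp4, Cuedc1 and Fam171a1 were lower. With 2 mice, the part of neuron stage and of construct level in these differences was not tested. All gg8 mice carried MexHT, so the state of the sorted cells and the construct cannot be told apart in them, and the library names give all gg8 libraries another date than all others, so neither can driver and date.

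Because each mCherry-negative library comes from the same mouse as a positive one, per the labels, the fractions can be set side by side mouse by mouse. This is a description, since the OSN libraries of both MexHT and HT mice chose the genes. How many of all genes were higher in the positive cells of every mouse was not counted, and the fractions differed in cell types (above). A mouse here is a replicate number. Whether animals were pooled is not given, and 14 of the 21 libraries held both Xist and Y-linked transcripts. In MexHT mice with both drivers all 6 members were higher in the positive cells of 5 of 5 mice, by a mean log2 difference of 2.53 (SD 0.43) for Fam212b, 2.52 (SD 0.83) for Pcp4, 1.91 (SD 0.20) for Fam171a1, 1.71 (SD 0.30) for Lrp3, 1.36 (SD 0.49) for Sbk1 and 0.96 (SD 0.26) for Cuedc1. In HT mice Cuedc1 was lower in the positive cells of 3 of 3 mice (mean -1.18, SD 0.26), and so were Lrp3 (-0.58, SD 0.24) and Fam212b (-0.24, SD 0.17). Fam171a1 (0.29, SD 0.13) and Sbk1 (0.31, SD 0.26) were higher in 3 of 3 HT mice by small amounts, and Pcp4 had no single direction (-0.13, SD 0.88, higher in 2 of 3). Adar was 4.27 (SD 0.09) higher in the positive cells of HT mice and 2.86 (SD 0.52) higher in those of MexHT mice. HT OSN, the group of that table with the highest mean Adar level (1079 ± 66.4 TPM, SD, n = 3), had the lowest Cuedc1 and Lrp3 levels.

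**Figure D3:**
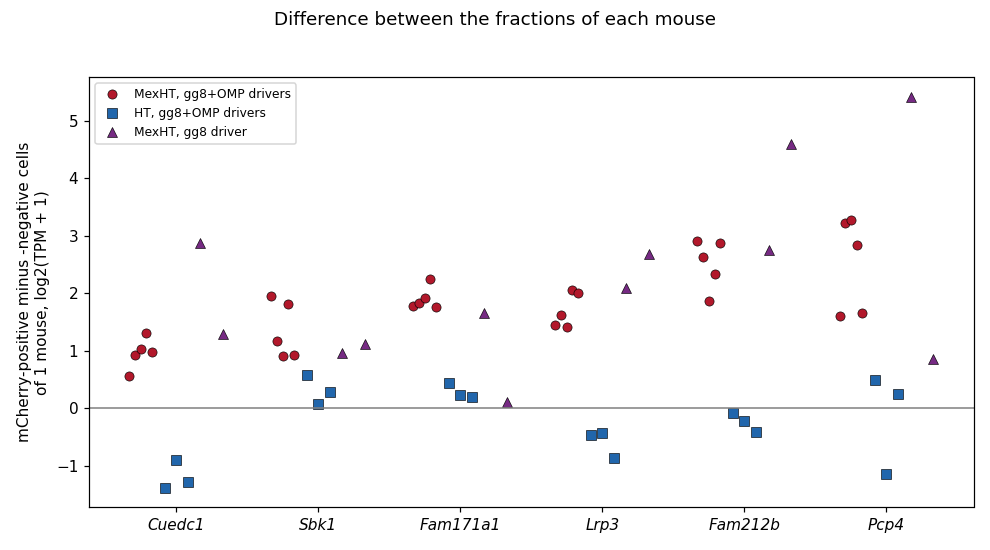
Difference between mCherry-positive and mCherry-negative cells of the same mouse, on log2(TPM + 1), 1 symbol per mouse. A mouse is a replicate number, per the labels, with 5 MexHT and 3 HT mice with both drivers and 2 MexHT mice with gg8tTA alone. MexHT mice are above 0 for all 6 genes, and HT mice are below 0 for Cuedc1, Lrp3 and Fam212b.

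Within the 6 MexHT OSN libraries the level of Mex3a varied, and 18 relations were computed, each member against the log2 level of Mex3a, an immature score and a mature score (the means of log2(TPM + 1) over the 12 genes). The same libraries entered the choice of the genes, which asked for a high level and a small spread in them, so these relations are not independent of it. Mex3a was 359, 337, 328 and 332 TPM in replicates 1 to 4, and 1271 and 679 TPM in replicates 5 and 6. Fam212b went up with Mex3a (Pearson r = 0.89, two-sided exact permutation p = 0.00139, the smallest that 6 libraries allow, and 0.025 after adjustment over 18; Spearman's rho = 1, exact p = 0.00278, adjusted 0.05). It was 65.3 and 63.2 TPM in replicates 5 and 6 and 31.9 to 43.1 in the others. Without those 2 libraries r was 0.81, over replicates 1 to 4, in which Mex3a hardly varied. With median-of-ratios scaling the adjusted p became 0.17 (r = 0.88), and with any 1 library left out 0 of the 18 relations passed.

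Pcp4 went the other way, with 21.9 and 32.1 TPM in replicates 5 and 6 and 42.9 to 55.6 in the other 4. Its r with Mex3a was -0.97 (exact permutation p = 0.0111, adjusted 0.1; rho = -0.83, exact p = 0.0583, adjusted 0.263), and with median-of-ratios scaling the adjusted p was 0.025. Without replicates 5 and 6 r was -0.37, so the relation rests on these libraries. With the mature score its r was 0.93 (exact permutation p = 0.0181, adjusted 0.108), and 0.13 without the same libraries. Fam171a1 had r = -0.76 with Mex3a (exact p = 0.0778, adjusted 0.175), -0.36 without replicates 5 and 6, and 0.87 with the immature score (exact p = 0.0306, adjusted 0.115), the latter -0.69 without replicates 3 and 4. Lrp3 had r = 0.73 with Mex3a (exact p = 0.0653, adjusted 0.175), -0.05 without replicates 5 and 6, and -0.83 with the mature score (exact p = 0.0319, adjusted 0.115), -0.78 without the same libraries. No relation of Sbk1 or Cuedc1 had an exact unadjusted p under 0.05.

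Replicates 5 and 6 also had the lowest mature OSN sums (2244 and 4220 TPM, others 4947 to 6700) and the highest progenitor sums (1736 and 1017 TPM, others 702 to 755). Adar was highest in them too (1198 and 742 TPM, others 377 to 422). The levels of Mex3a and Adar and the mature and progenitor sums thus moved together and cannot be told apart in these libraries. The immature OSN sums of replicates 5 and 6, 6722 and 6588 TPM, lay within the range of the others, 5867 to 6838 TPM. Over the 17 libraries with both drivers the 15 pairs of members had Pearson correlations of 0.69 to 0.97 on log2(TPM + 1), values that the shared choice of genes fixes in large part. Within the 6 MexHT OSN libraries the pairs ran from -0.82 (Fam212b with Pcp4) to 0.88 (Lrp3 with Sbk1), with Fam212b and Fam171a1 at -0.81 and Fam171a1 and Sbk1 at 0.09. These are descriptions over 6 libraries that share cell composition.

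**Figure D4:**
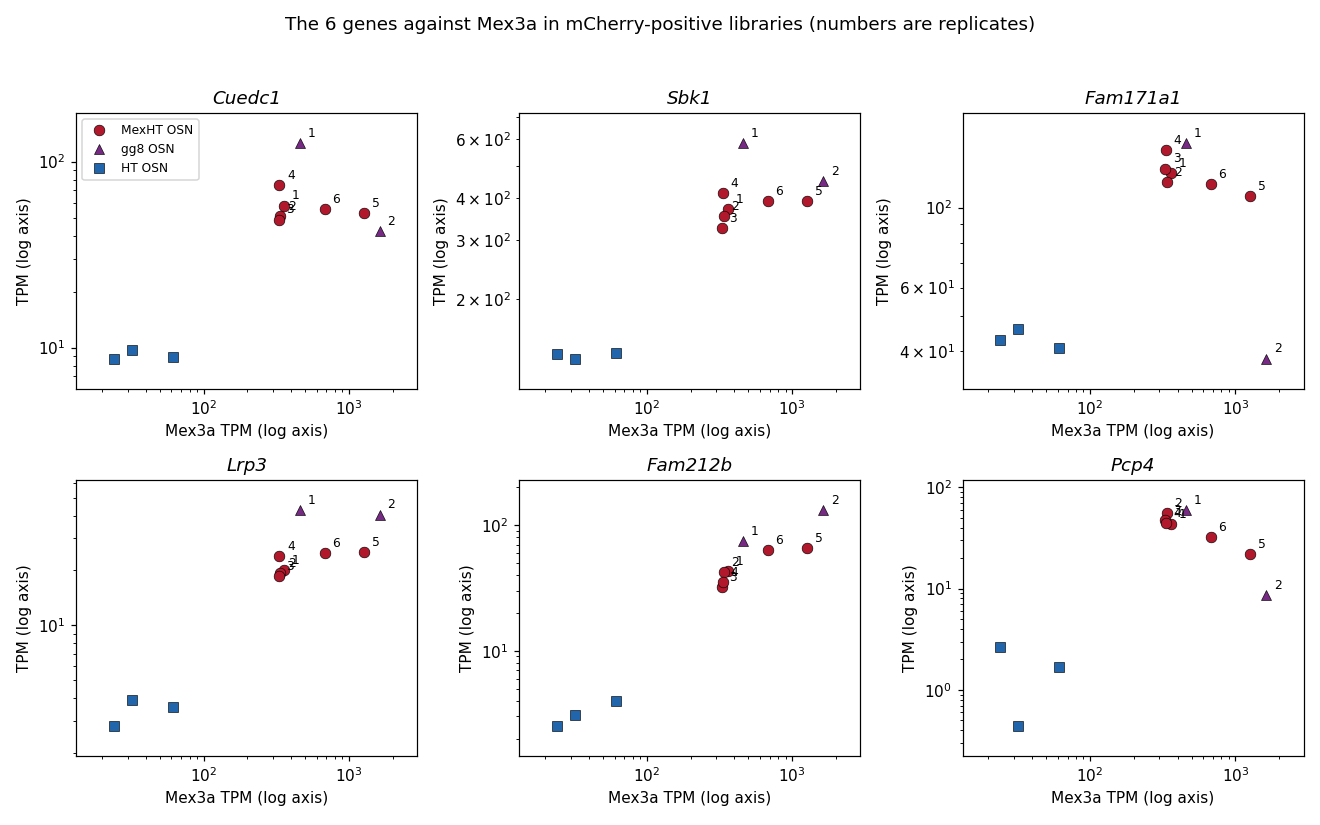
TPM of each gene against TPM of Mex3a, both on log axes, in the mCherry-positive libraries (6 MexHT with both drivers, 2 with gg8tTA alone from a separately scaled table, 3 HT), with replicate numbers beside the MexHT libraries. Fam212b lies highest and Pcp4 and Fam171a1 lowest among MexHT libraries where Mex3a is highest, replicate 2 of the gg8 libraries at 1632 TPM.

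The genes most like the mean of the 6 members over the 17 libraries, of 12285 searched, were Armcx2 (an armadillo protein of the X chromosome, r = 0.98), the dynein light chain Dynll1 (0.97), Enho (the precursor of adropin, 0.97), the acetyl-CoA carboxylase Acaca (0.97) and Reep2 (a protein that shapes the endoplasmic reticulum, 0.97). By single member they were Armcx4 for Cuedc1 (r = 0.97), Bzw2 for Sbk1 (0.99), Mmadhc for Lrp3 (0.97), the liprin Ppfia3 for Fam212b (0.99) and Lurap1l for Pcp4 (0.95). Gng8 ranked 198 (r = 0.91) and Mex3a 226 (0.91), Crmp1 907 (0.83) and Gap43 1269 (0.79), while Adar (0.38), Dcx (0.03) and Omp (-0.05) were far down. These are correlations over libraries that share the same groups.

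In the gg8 table, which did not enter that search, Reep2 was 4.49 TPM on average in negative and 42.1 in positive cells (difference 2.95, SE 0.46, limma adjusted p = 0.0255). Enho (2.10, adjusted p = 0.0256), Armcx2 (1.97, 0.0299) and Ppfia3 (2.73, 0.0287) were called higher too, each call being lost when either negative library or positive replicate 2 was left out. Dynll1 (-0.11, limma adjusted p = 0.791), Acaca (0.94, 0.252), Bzw2 (0.39, 0.381), Mmadhc (0.62, 0.184), Lurap1l (0.97, 0.151) and Armcx4 (2.04, 0.0599) were not. In mCherry-negative cells none of these 10 was called between MexHT and HT mice, with differences of 0.06 to 0.68.

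The relatives and partners of the members were called in both directions. In MexHT against HT OSN, Fam171a2 rose (24.1 ± 1.14 TPM, n = 3, to 59.8 ± 14.8, n = 6, limma adjusted p = 9.1e-04), Fam171b did not pass (-0.34, 0.553), Cuedc2 rose by 0.50 (0.0255) and Sbk2 did not pass (0.23, 0.577) at under 2 TPM. Of 20 calmodulin partners and relatives of Pcp4, 3 were called higher and 3 lower, shares under the 19.9% and 16.8% of all genes. The calmodulin kinase subunit Camk2b rose from 5.60 ± 1.88 to 45.5 ± 9.79 TPM (limma adjusted p = 9.6e-05), Gap43 and Camk2g (0.85, 0.0335) rose less, and Camk2d (-1.22, 0.00193), the paralog Pcp4l1 (-1.08, 0.0296) and the calcineurin subunit Ppp3ca (-0.56, 0.0181) fell. Pcp4 and its paralog Pcp4l1 thus lay on opposite sides. Leaving out HT OSN replicate 1 or 2 ended the calls of Cuedc2, Camk2g, Pcp4l1 and Ppp3ca.

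Of 15 tested genes of the LDL receptor family, 4 fell (16.8% of all genes did), among them Ldlrad4 (-1.81, limma adjusted p = 0.00505), the sorting receptor Sorl1 (-1.58, 4.6e-04) and Lrp1 (-1.49, 0.0110). Lrp1 was spread widely in HT OSN (84.2 ± 69.7 TPM), the libraries that also held more immune transcripts. Of 16 genes around Fam212b and the p21-activated kinases, 7 rose and 2 fell, where 19.9% of all genes rose and 16.8% fell. The target kinase Pak4 rose from 24.5 ± 2.19 to 42.0 ± 4.91 TPM (adjusted p = 0.00167), the downstream kinase Limk1 from 38.4 ± 1.32 to 80.3 ± 15.6 TPM (adjusted p = 0.00102) and Pak1 by 0.62 (0.00366), and Pak3 (-0.99, 0.00853) and Pak2 (-0.59, 0.0129) fell. With the Xist level as a covariate none of these relatives but Camk2b and Sorl1 stayed past the threshold. In mCherry-negative cells none of them was called. In gg8-driven OSN Nrgn (-2.45, limma adjusted p = 0.0468) and Sorl1 (-2.18, 0.0480) were called lower, calls that a pseudocount of 0.1 TPM or leaving out either negative library or positive replicate 2 ended, and Limk1 (1.06, 0.0686) and Fam171a2 (1.18, 0.0838) were not past the threshold.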

How the data were processed

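RNA was measured in 21 libraries of sorted cells from the main olfactory epithelium, prepared with a SMARTer stranded kit, per the labels' protocols. The authors deposited TPM values in 2 tables, 1 with 17 and 1 with 4 libraries, each column summing to 1000000. FastQC, cutadapt, STAR, bedtools and the mm10 build are named in the submitters' processing notes, without versions. The counting program and its use of strand are not given in the sources used here. The tables were scaled separately, so tests stayed within a table. Date-like gene names (27 in each table) were left out.

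TPM values were whole multiples of a step per gene and library, which gave whole counts (within 0.01) for 99.9958% of 23614 genes in the larger table and, with its steps and a tolerance of 0.05, for 99.85% of 22786 in the smaller. The recovery was tested on simulated data. These counts give the depth, and the counting intervals in the text cover counting error only.

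Each comparison was fitted with limma 3.58.1 (R 4.3.3, empirical Bayes with a mean trend, only the groups compared) on log2(TPM + 1). Genes had to average 1 TPM or more in the fitted libraries. Tests were two-sided, with Benjamini-Hochberg adjustment over all genes and a threshold of 0.05. The fits were tested on simulated data. All p-values without another name are limma's adjusted values. Differences on log2(TPM + 1) understate the fold of low genes. The members and gene lists were chosen with earlier results of these data known. The 6 members, Mex3a and Adar were always named, then the 5 genes most correlated with the members' mean and 1 per member (mean of at least 5 TPM, predicted genes passed over), all genes of lists of up to 3, and of longer lists the called genes, at most 3 per direction, in MexHT against HT OSN. Genes ranked beside the members, genes called in gg8-driven OSN, and Igsf5 and Slc7a10 were added after their values were seen. Results for 3 further genes are not reported here.

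Replicate numbers mark the same mouse in both fractions, per the labels, so in the gg8 table the mouse was a block in an alternative fit. Between MexHT and HT negative cells same-numbered libraries deviated together (correlations of 0.34, 0.42 and 0.23), and a block was tried there too. Replicates are numbered mice, per the labels, and whether animals were pooled is not given in the sources used here. Alternatives were other pseudocounts (0.1 and 5 TPM), filters, median-of-ratios scaling, voom on the recovered counts, all groups in 1 fit, an Xist covariate, and leaving out each library.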

Additional observations from a re-analysis of the deposited data

Results flagged for a closer look

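A library stood apart from the rest of its group in 3 of 20 gene and group combinations tested, where chance marks about 1 in 20. Cuedc1 was at 74.8 TPM in MexHT OSN replicate 4, the next library being at 58.0 TPM. Pcp4 was at 13.4 TPM in MexHT mCherry-negative replicate 1, from 30 counts, the next being at 6.30 TPM. Without that library the difference between MexHT and HT negative cells in Pcp4 stayed positive, as it did without any other single library (1.22 to 1.60). Mex3a was at 1271 TPM in MexHT OSN replicate 5 and 679 TPM in replicate 6, with the other 4 between 328 and 359 TPM. The relation of Pcp4 with Mex3a rests on those 2 libraries (r = -0.37 without them), and that of Fam212b had r = 0.81 without them. Both values come from the other 4 libraries, whose range of Mex3a is too narrow to show a relation.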

How the results depend on the processing

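All 6 members stayed higher in MexHT than in HT OSN in all 18 alternatives, between 1.35 (Sbk1) and 5.01 (Pcp4). The count of genes called there was 5907, 329 with the Xist covariate (323 shared) and 3745 to 6506 when 1 library was left out. The split of higher and lower calls was 3202 and 2705, and 2583 and 3114 with voom or 2940 and 3307 with no filter. The replicate number as a block, although same-numbered OSN libraries did not deviate together (0.11, 0.13 and -0.23), gave 4801 genes. In mCherry-negative cells 0 genes were called, 1 with no filter, 23 with all 4 groups in one fit, 0 with the replicate block, and 0 to 4 when 1 library was left out. No member was called in any of these, and Lrp3 (0.05) ranged from -0.12 (reversed, without HT negative replicate 1) to 0.21 when 1 library was left out. In gg8-driven OSN 1372 genes were called, 646 with a pseudocount of 0.1 TPM, 820 at a mean of at least 5 TPM, 1529 with the replicate block, and 0 to 3703 when 1 library was left out, where the lone library is assumed to vary like the other group. Apart from Cuedc1, the block changed no call of a member. Fam171a1 (0.89) ranged from -0.092 (reversed, without gg8 OSN replicate 1) to 1.86 when 1 library was left out. Of the 18 relations within MexHT OSN 1 was called, and 0 when any 1 library was left out, since 5 libraries can hardly pass an adjustment over 18. The mean within-mouse difference of Pcp4 in HT mice (-0.13) ranged from -0.45 to 0.37 when 1 mouse was left out, reversed without replicate 2. Apart from the fewer libraries, the cause of these changes was not tested. Depth limits Pcp4, at 1 to 6 counts in HT OSN.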
